A study of Mus musculus with 34 samples.

Results

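The 10 genes described here carry out the urea cycle and the linked handling of glutamine and glutamate in liver. They were chosen by name from the array annotation (Cps1, Otc, Ass1, Asl, Arg1, Nags, Slc25a15, Gls2, Glul and Glud1), with every non-control probe that the scanner files assign to them. All 10 passed the detection filter and form 10 of the 15772 genes tested. They were covered by 13 probes, and every one of these was well above background on all 34 arrays.

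Each array was hybridised with liver RNA of 1 male C57Bl/6J mouse aged 14 weeks. The mice were killed at zeitgeber time 14, that is 14 h after the start of the daily light phase, after 10 days of daily gavage. The daily dose of the drug groups was 100 mg of fenofibrate per kg of body weight, and the vehicle was gum arabic at 3%. Fenofibrate is a lipid-lowering agonist of the receptor encoded by Ppara, PPARA. The genotypes were WT (wild type, 4 vehicle and 4 fenofibrate mice), KO (Ppara knockout, 3 and 5), LKO (Ppara knockout in liver, 4 and 5) and LWT (the liver wild type set beside LKO, 4 and 5). All groups shared the strain, sex, age and chow diet. The allele of the liver knockout and the driver of its deletion are not given in the sources used here. The comparisons ask how the drug and the loss of Ppara, in liver or in the whole body, move these genes.

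The urea cycle turns ammonia and amino acid nitrogen into urea. NAGS makes N-acetylglutamate, the cofactor without which CPS1 does not work, and CPS1 and OTC act in the mitochondrion, where the carrier SLC25A15 brings in ornithine. ASS1, ASL and ARG1 complete the cycle in the cytosol. Periportal hepatocytes hold most of the cycle and the glutaminase GLS2, which releases ammonia from glutamine, while a thin rim of pericentral hepatocytes holds the glutamine synthetase GLUL. GLUD1 is the mitochondrial glutamate dehydrogenase.

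Levels are log2 intensities from which the array's own 75th percentile was subtracted, so that 0 is that percentile. They order the groups for 1 gene and do not order the genes. Changes are log2 differences of group means ± SE from limma. A gene was called when its two-sided p, adjusted by Benjamini-Hochberg over all 15772 genes, was under 0.05. The tissue is whole liver, in which fewer cells of a type and less RNA per cell cannot be told apart.

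The sequences below show which part of 4 of the enzymes the arrays read. Each is the 60-base probe as printed on the array, and each has 1 reading frame without a stop codon. The Cps1 probe lies at chr1:67276029-67276088, plus strand, of the mm9 build. The Arg1 probe lies at chr10:24636194-24636253, minus strand. The Asl probe spans chr5:130487964-130488549, minus strand, a stretch of 586 bases for 60 bases of probe, so it joins separated pieces of the genome. The Otc probe shown is the less bright of the pair for that gene. It spans chrX:9853843-9877490, plus strand, a stretch of 23648 bases, and is spotted 10 times on each array. Exon annotation of mm9 was not used here.

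Cps1: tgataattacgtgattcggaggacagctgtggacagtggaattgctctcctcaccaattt
Asl: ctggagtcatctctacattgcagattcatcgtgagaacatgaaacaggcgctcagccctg
Arg1: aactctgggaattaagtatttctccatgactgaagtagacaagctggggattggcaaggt
Otc: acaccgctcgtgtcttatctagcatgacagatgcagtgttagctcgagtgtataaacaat

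The arrays had 50.6% to 63.2% of probes well above background, and no spot was saturated. Ppara was lower in LKO than in LWT vehicle mice by a log2 change of -0.91 ± 0.16 (adjusted p = 0.000154), and in KO than in WT vehicle mice by -1.68 ± 0.17 (adjusted p = 8.32e-09). Ehhadh, a peroxisomal enzyme and PPARA target, rose with fenofibrate by 3.59 ± 0.30 in WT and 3.05 ± 0.29 in LWT mice (limma, adjusted p = 6.56e-10 and 6.71e-09), and its changes of 0.44 ± 0.29 in LKO and 0.18 ± 0.31 in KO mice were not called. The 3 KO vehicle livers were the least alike of any group, with correlations across the genes tested, without those with missing values, of 0.979 to 0.985. Replicate 3 of that group stood apart in several of the genes below, and results that rest on it are given with and without it. All 8 hepatocyte markers of the list used here (Alb, Ttr, Apoa1, Trf, Ahsg, Fgb, Tat and Tdo2) were well above background on every array.

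Fenofibrate lowered most of the pathway in WT liver. Of the 10 genes, 6 fell and none rose: Gls2, Otc, Cps1, Ass1, Asl and Glud1. Over all genes 21.5% were called in this comparison, 1597 higher and 1788 lower. The median log2 change was -0.35 for the 10 genes and 0.00 for all genes. For each of the 6 genes that fell, the WT fenofibrate mice all lay below the WT vehicle mice. That was not counted over all genes, so it adds no support to the calls. In LWT liver 4 of the 10 fell and none rose, Otc, Cps1, Ass1 and Gls2, against 17.9% of all genes called. The median change of the 10 genes in LWT was -0.28. In LKO and KO liver none of the 10 was called, with the medians at -0.03 and 0.06.

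**Figure D1:**
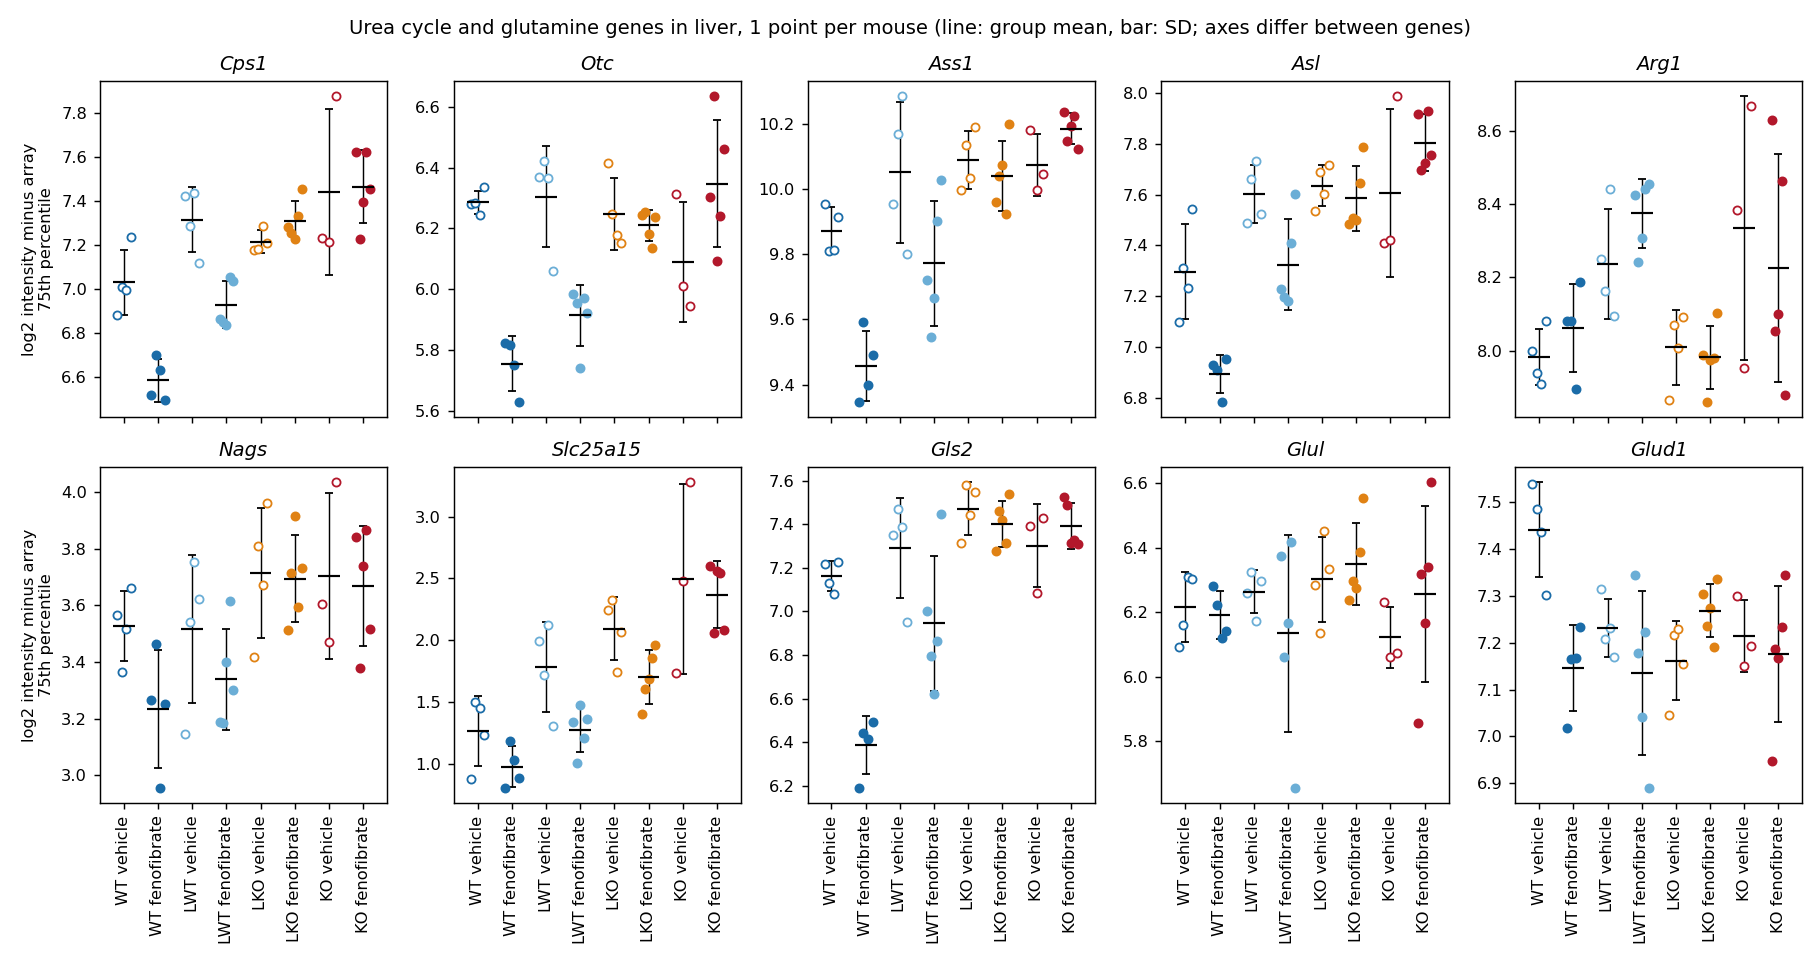
Level of each gene in each mouse (log2 intensity minus the 75th percentile of the array) in the 8 groups, with open points for vehicle, filled points for fenofibrate, a line for the group mean and a bar for the SD. The WT fenofibrate group has the lowest mean for Gls2, Otc, Cps1, Ass1 and Asl, while Glul shows no group apart from the others.

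**Figure D2:**
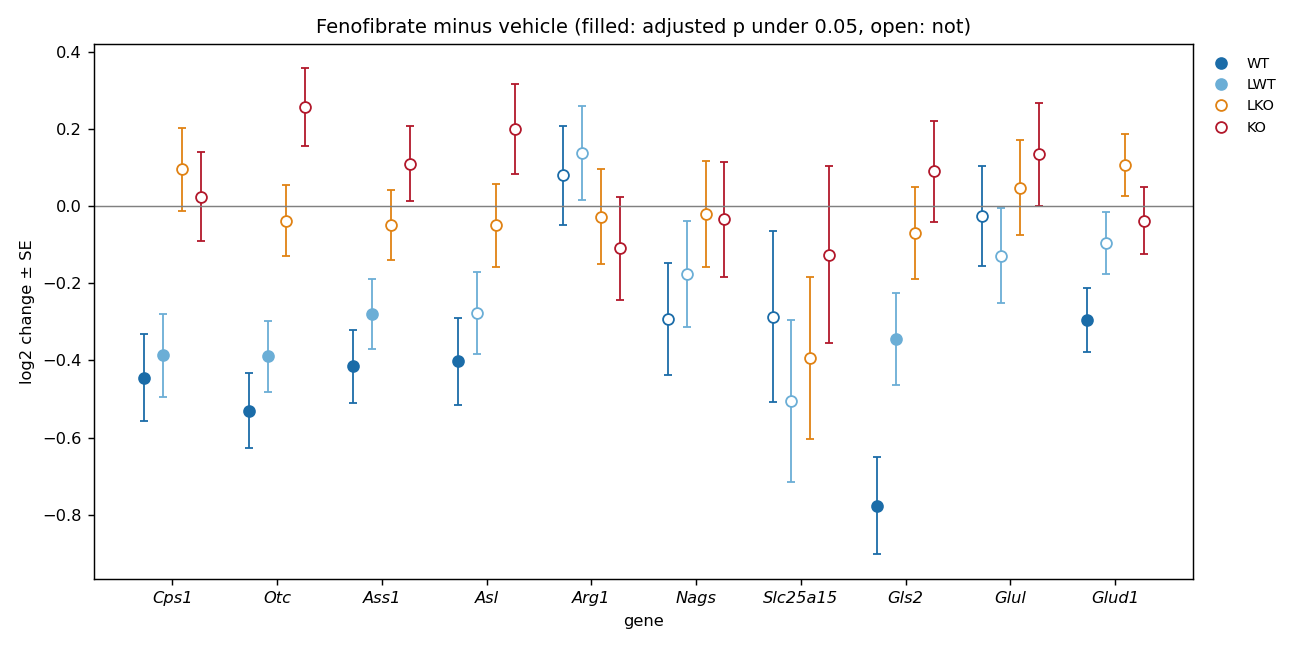
Log2 change (fenofibrate minus vehicle, ± SE) of each gene in WT, LWT, LKO and KO liver. Filled points had an adjusted p under 0.05: 6 genes in WT and 4 in LWT, all below 0, and none in LKO or KO.

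Cps1 encodes carbamoyl phosphate synthetase, the entry step of the cycle. Its level was 6.88, 7.01, 7.00 and 7.24 in the WT vehicle mice and 6.52, 6.70, 6.63 and 6.50 in the WT fenofibrate mice. The groups did not overlap, and the change was -0.44 ± 0.11 (limma, adjusted p = 0.00463), which left 73.5% of the vehicle level. In LWT mice it went from 7.42, 7.29, 7.44 and 7.12 on vehicle to 6.86, 6.85, 6.84, 7.06 and 7.04 on the drug. These groups did not overlap either, and the change was -0.39 ± 0.11 (adjusted p = 0.0109). In LKO mice the means were 7.22 ± 0.05 (SD, n = 4) on vehicle and 7.31 ± 0.09 (SD, n = 5) on the drug, a change of 0.09 ± 0.11.

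Otc encodes ornithine transcarbamylase, which joins carbamoyl phosphate to ornithine. It read 6.28, 6.28, 6.24 and 6.34 in WT vehicle mice and 5.82, 5.82, 5.75 and 5.63 in WT fenofibrate mice. That gap was several times the spread within either group, and the change was -0.53 ± 0.10 (limma, adjusted p = 0.000174). In LWT mice it read 6.37, 6.42, 6.36 and 6.06 on vehicle and 5.99, 5.96, 5.74, 5.97 and 5.92 on the drug. The lowest vehicle mouse stayed above all drug mice, and the change was -0.39 ± 0.09 (adjusted p = 0.0031). The junction-spanning Otc probe printed above gave -0.42 ± 0.13 in WT (adjusted p = 0.0282 over all probes) and -0.16 ± 0.13 in LWT (adjusted p = 0.488). The LWT call for Otc therefore rests on the brighter probe, and with the probes averaged it was -0.27 ± 0.10 (adjusted p = 0.0681).

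Ass1 encodes argininosuccinate synthetase, the step that brings in aspartate nitrogen. Its level was 9.95, 9.81, 9.81 and 9.91 in WT vehicle mice and 9.35, 9.59, 9.40 and 9.49 in WT fenofibrate mice. The groups did not overlap, and the change was -0.42 ± 0.10 (limma, adjusted p = 0.00192). In LWT mice the level ran from 9.80 to 10.28 on vehicle and from 9.55 to 10.03 on the drug. Those groups overlapped, and the change of -0.28 ± 0.09 (adjusted p = 0.0302) lost its call in 10 of the alternatives, 5 of which each left out 1 mouse (LWT vehicle replicate 2 or 3, or LWT fenofibrate replicate 1, 2 or 3). The smallest of these 5 changes, without LWT vehicle replicate 3, was -0.20 ± 0.09 (adjusted p = 0.16). The other Ass1 probe gave -0.52 ± 0.11 in WT and -0.37 ± 0.10 in LWT (adjusted p over all probes 0.000922 and 0.0139). The brighter Ass1 probe and the Nags probe are each listed with 2 RefSeq transcripts and may read RNA of another one. Whether these are transcripts of the same gene was not looked up. The other Ass1 probe is listed with 1.

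Asl encodes argininosuccinate lyase, which releases arginine and fumarate. It read 7.10, 7.31, 7.23 and 7.54 in WT vehicle mice and 6.93, 6.91, 6.79 and 6.95 in WT fenofibrate mice. The groups did not overlap, and the change was -0.40 ± 0.11 (limma, adjusted p = 0.0101). Without WT vehicle replicate 4, the highest of its group, it was -0.32 ± 0.12 (adjusted p = 0.0532). In LWT mice the change was -0.28 ± 0.11 (adjusted p = 0.0716) and was not called. There LWT fenofibrate replicate 5 read 7.60, inside the vehicle range of 7.49 to 7.73, and the other 4 drug mice read 7.18 to 7.41. Without that mouse the change was -0.35 ± 0.11 and was called (adjusted p = 0.0244).

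Arg1 encodes arginase, which splits arginine into urea and ornithine. It did not follow the 4 enzymes before it. Its level was 7.91 to 8.08 in WT vehicle mice and 7.90 to 8.19 in WT fenofibrate mice, and the change was 0.08 ± 0.13 with a 95% interval of -0.18 to 0.34. In LWT mice the change was 0.14 ± 0.12, with an interval of -0.11 to 0.39. The WT interval lies above the fitted change of -0.40 that Asl, the step before it, had in WT. The LWT interval lies above the fitted -0.28 of Asl in LWT, which was not called. The difference between Arg1 and Asl was not tested.

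Nags and the ornithine carrier Slc25a15 were not called with the drug in any genotype. Nags changed by -0.29 ± 0.14 in WT (adjusted p = 0.159) and by -0.18 ± 0.14 in LWT (adjusted p = 0.422). The change of Slc25a15 was -0.29 ± 0.22 in WT, -0.51 ± 0.21 in LWT (adjusted p = 0.0974) and -0.39 ± 0.21 in LKO. Slc25a15 had the widest spread of the 10 genes, with an SD within groups of 0.36, against a median of 0.22 over all genes. Its LWT change was -0.67 ± 0.22 (adjusted p = 0.0415) without LWT vehicle replicate 4, the lowest of its group at 1.30.

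Among the glutamine genes, Gls2 moved most. The liver glutaminase read 7.22, 7.13, 7.08 and 7.22 in WT vehicle mice and 6.19, 6.44, 6.42 and 6.49 in WT fenofibrate mice. The change was -0.78 ± 0.13 (limma, adjusted p = 3.44e-05), which left 58.3% of the vehicle level, and was the largest fall among the 10 genes in WT. In LWT mice it read 7.35, 7.47, 7.39 and 6.95 on vehicle and 7.00, 6.79, 6.62, 6.86 and 7.45 on the drug. LWT fenofibrate replicate 5 lay among the vehicle mice and LWT vehicle replicate 4 among the drug mice. The LWT change of -0.35 ± 0.12 (adjusted p = 0.043) lost its call in 10 of the alternatives. In 7 of them 1 mouse was left out, and the mice were LWT vehicle replicates 1, 2 and 3 and LWT fenofibrate replicates 1 to 4. The smallest of these changes, without LWT fenofibrate replicate 3, was -0.26 ± 0.12 (adjusted p = 0.136).

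Glul, which makes glutamine from glutamate and ammonia, was called in none of the comparisons at the settings used for the report. Between LKO and LWT on the drug its change was 0.21 ± 0.12 (limma, adjusted p = 0.155), but it was called at 0.33 ± 0.11 with quantile normalization (adjusted p = 0.0236) and at 0.30 ± 0.11 in the authors' value table (adjusted p = 0.0288). Its group means lay between 6.12 and 6.35, the narrowest range of the 10 genes. The drug change was -0.03 ± 0.13 in WT, with a 95% interval of -0.29 to 0.24. LWT fenofibrate replicate 5, which was high for Gls2 and Asl, was the lowest of all 34 mice for Glul at 5.66. The other 4 mice of its group read 6.06 to 6.42.

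Glud1, the enzyme between glutamate and ammonia, fell in WT by a smaller amount. It read 7.54, 7.49, 7.44 and 7.30 on vehicle and 7.02, 7.17, 7.17 and 7.23 on the drug, with no overlap. The change was -0.30 ± 0.08 (limma, adjusted p = 0.0113). It was -0.25 ± 0.09 (adjusted p = 0.0549) without WT fenofibrate replicate 1, -0.19 ± 0.08 (adjusted p = 0.111) with normexp background correction and -0.13 ± 0.07 (adjusted p = 0.184) in the authors' value table. The other Glud1 probe gave -0.21 ± 0.08 (adjusted p = 0.0713 over all probes). The LWT change was -0.10 ± 0.08 (adjusted p = 0.461).

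In LKO mice the drug changes of the 10 genes ran from -0.39 to 0.11. No member had an unadjusted p under 0.05, and of all genes 0% were called by limma, although 918 had an unadjusted p under 0.05. In KO mice the changes ran from -0.13 to 0.26, with 1 member at an unadjusted p under 0.05 and 0.0127% of all genes called. That member was Otc, at 0.26 ± 0.10 (limma, adjusted p = 0.328), named after its value was seen. The 95% intervals for Gls2 were -0.31 to 0.17 in LKO and -0.18 to 0.36 in KO mice.

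The difference between the drug responses was tested directly. Between WT and KO it was called for 4 of the 10 genes, against 11% of all genes. The response of Gls2 was lower in WT than in KO by -0.87 ± 0.18 (limma, adjusted p = 0.00159), that of Otc by -0.79 ± 0.14 (adjusted p = 0.000266), that of Asl by -0.60 ± 0.16 (adjusted p = 0.0141) and that of Ass1 by -0.53 ± 0.14 (adjusted p = 0.0109). The difference for Asl was -0.51 ± 0.17 (adjusted p = 0.0553) without KO vehicle replicate 2. For Cps1 it was -0.47 ± 0.16 (adjusted p = 0.0594), and -0.69 ± 0.14 (adjusted p = 0.00131) without KO vehicle replicate 3. It was also called without WT vehicle replicate 1 (adjusted p = 0.0445) or KO fenofibrate replicate 2 (adjusted p = 0.0322).

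Between LWT and LKO the difference of responses was called for none of the 10 genes, against 6.76% of all genes. In that test 2 members had an unadjusted p under 0.05. Cps1 had the largest difference at -0.48 ± 0.15 (limma, adjusted p = 0.0503), and Otc had -0.35 ± 0.13 (adjusted p = 0.106). Cps1 passed the threshold without LWT vehicle replicate 4 (adjusted p = 0.0331), LWT fenofibrate replicate 4 (adjusted p = 0.0478) or LWT fenofibrate replicate 5 (adjusted p = 0.0457), and Otc without LWT vehicle replicate 4 (adjusted p = 0.0415). The responses of WT and LWT were called different for none of the 10 genes and for 0% of all genes (675 at an unadjusted p under 0.05). For Gls2 that difference was -0.43 ± 0.17, with an adjusted p of 0.977.

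On vehicle, loss of Ppara in liver left the 10 genes without a call. Between LKO and LWT their changes ran from -0.23 to 0.31, none had an unadjusted p under 0.05, and 6.16% of all genes were called. KO and WT vehicle livers differed more, with 30.1% of all genes called and 2 of the 10, both higher in KO by their brightest probes. In these groups same-numbered mice deviated together (r from 0.12 to 0.40), though mice of different numbers were not compared. With the number as a block over all 34 arrays, 4 of the 10 were called. Asl at 0.34 ± 0.11 (adjusted p = 0.023) and Arg1 at 0.37 ± 0.14 (adjusted p = 0.0414) joined Cps1 and Slc25a15. Without the block and without KO vehicle replicate 3 these changes were 0.12 ± 0.12 for Asl (adjusted p = 0.507) and 0.19 ± 0.15 for Arg1 (adjusted p = 0.384), and neither was called. The second probes of Otc and Ass1 differed in size from the first. The other Otc probe was lower in KO at -0.45 ± 0.14 (adjusted p = 0.0214 over all probes), while the brighter one changed by -0.20 ± 0.10 (adjusted p = 0.162). The other Ass1 probe was higher at 0.41 ± 0.12 (adjusted p = 0.00887 over all probes), while the brighter one changed by 0.20 ± 0.10 (adjusted p = 0.141). With probes averaged, Otc was called lower at -0.32 ± 0.12 (adjusted p = 0.0384) and Ass1 higher at 0.31 ± 0.10 (adjusted p = 0.0258). Otc was also called lower without KO vehicle replicate 1 (-0.31 ± 0.11, adjusted p = 0.035).

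Slc25a15 had the largest knockout difference of the 10 genes. It read 0.87, 1.50, 1.45 and 1.23 in WT vehicle mice and 1.73, 2.48 and 3.28 in KO vehicle mice. The groups did not overlap, and the change was 1.23 ± 0.24 (limma, adjusted p = 0.000257), or 2.35-fold. Without KO vehicle replicate 3, the highest mouse, it was 0.84 ± 0.23 (adjusted p = 0.00738). With only these groups in the fit, the adjusted p was 0.055.

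Cps1 was higher in KO than in WT vehicle mice by 0.41 ± 0.12 (limma, adjusted p = 0.0114). The KO mice read 7.23, 7.21 and 7.88, and the first pair lay within the WT range of 6.88 to 7.24. Without replicate 3 the change was 0.19 ± 0.11 (adjusted p = 0.214). In the same mouse Asl read 7.99, against 7.41 and 7.42 in the other two.

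Markers of several other cell types were called in this comparison, in which 30.1% of all genes were. Of 7 endothelial markers 3 were higher (Stab2, Pecam1 and Eng) and 2 lower (Clec4g and Kdr). Their summed level was 6.46 to 6.82 in WT and 6.36 to 6.60 in KO vehicle mice, and the part of these cells was not tested. Kupffer cells are the resident macrophages of liver. Of 7 Kupffer markers, all measured, 3 were called higher in KO vehicle mice (Csf1r, C1qa and Adgre1) and none lower. Their summed level was 6.65 to 7.20 in WT vehicle mice and 6.88 to 8.93 in KO vehicle mice. All of the 7 but Clec4f were highest in replicate 2 among the KO vehicle mice. There the macrophage receptor Marco read 7.42, against 2.11 in replicate 1 and 2.43 in replicate 3. Adgre1 read 4.29, against 1.38 and 1.05 in the same order. Clec4f went the other way, at 4.70 in replicate 2 against 5.22 and 4.91. Replicate 3, the highest for Cps1, Asl and Slc25a15, had the lowest level of 5 of the 7 markers among the KO vehicle mice. Of 7 lymphocyte and neutrophil markers, 3 were higher and 1 lower, with sums of 3.67 to 3.83 in WT and 3.75 to 4.84 in KO. Without replicate 2, and with replicate 3 still in the fit, the change was 0.52 ± 0.13 for Cps1 (limma, adjusted p = 0.0039). That of Slc25a15 was 1.24 ± 0.28 (adjusted p = 0.0013). The part of macrophages and other immune cells in these changes was not tested.

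On the drug, the knockouts stood above their controls. Between LKO and LWT fenofibrate mice 36.6% of all genes were called, and of the 10 genes 6 were higher in LKO and 1 lower. Between KO and WT fenofibrate mice 43.3% of all genes were called, and 7 of the 10 were higher and none lower. These comparisons use the same drug-treated control mice as the responses above, so they are not a separate measurement of the fall.

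**Figure D3:**
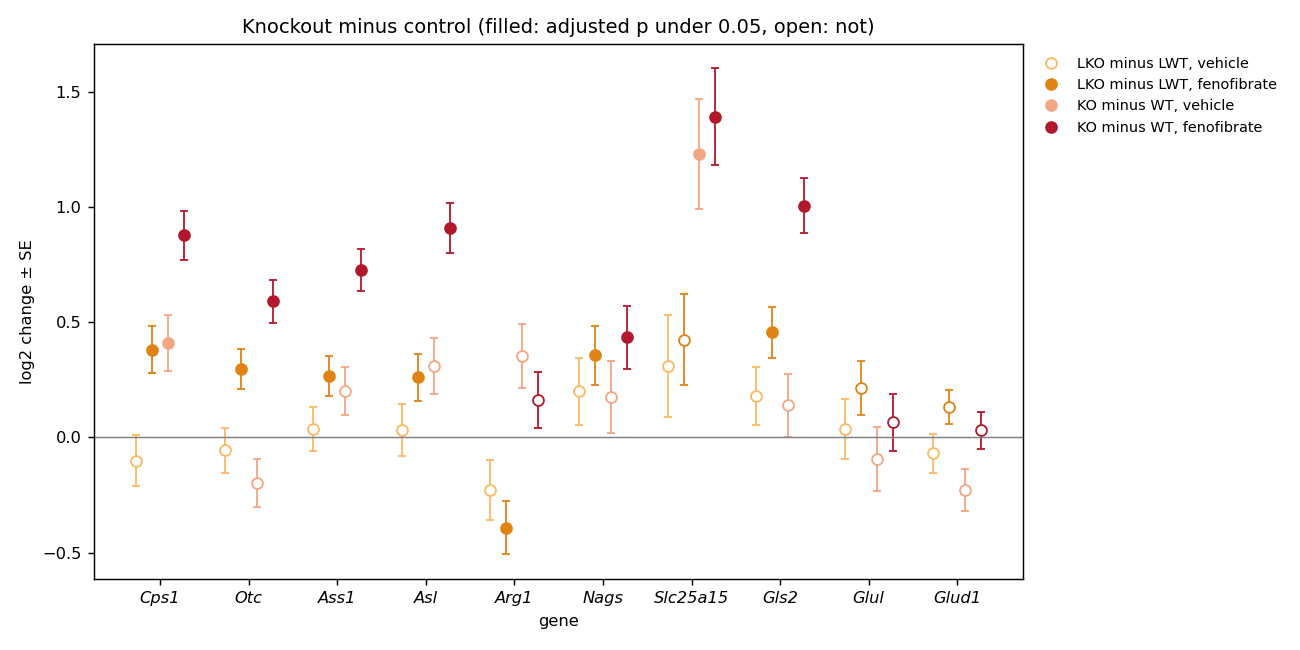
Log2 change (knockout minus control, ± SE) of each gene on vehicle and on fenofibrate, for LKO against LWT and KO against WT. Filled points had an adjusted p under 0.05. On fenofibrate 6 genes in LKO and 7 in KO lie above 0 and are called, and Arg1 in LKO is the single called value below 0.

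In the LKO comparison on the drug Gls2 was higher by 0.46 ± 0.11 (limma, adjusted p = 0.00181). It read 7.28, 7.46, 7.42, 7.31 and 7.54 in LKO fenofibrate mice, above 4 of the 5 LWT fenofibrate mice. Cps1 was higher by 0.38 ± 0.10 (adjusted p = 0.00333), with 7.28, 7.25, 7.23, 7.33 and 7.45 in LKO and no overlap. Otc was higher by 0.30 ± 0.09 (adjusted p = 0.0078) by its brighter probe, without overlap. Its junction-spanning probe changed by 0.03 ± 0.12 (adjusted p = 0.892 over all probes), and with the probes averaged the call was lost at 0.16 ± 0.10 (adjusted p = 0.208).

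Ass1 was higher in LKO on the drug by 0.27 ± 0.09 (limma, adjusted p = 0.014), Nags by 0.36 ± 0.13 (adjusted p = 0.0308) and Asl by 0.26 ± 0.10 (adjusted p = 0.0429). All of these overlapped between the groups. Ass1 lost its call without LWT fenofibrate replicate 2 (adjusted p = 0.0605) or LKO fenofibrate replicate 5 (adjusted p = 0.0507). Asl and Nags lost theirs in 8 alternatives each. For Asl the mice were LWT fenofibrate replicates 1, 2 and 3 and LKO fenofibrate replicates 4 and 5, with adjusted p up to 0.13. For Nags they were LWT fenofibrate replicates 1, 2 and 5 and LKO fenofibrate replicates 2, 3 and 5, with adjusted p up to 0.0926. In all, 4 of the 10 genes kept a call without LWT fenofibrate replicate 2 or LKO fenofibrate replicate 5.

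Arg1 went the other way. It read 8.43, 8.24, 8.31, 8.44 and 8.46 in LWT fenofibrate mice and 7.99, 7.86, 7.98, 7.98 and 8.10 in LKO fenofibrate mice. The groups did not overlap, and LKO was lower by a log2 change of -0.39 ± 0.12 (limma, adjusted p = 0.00797). On vehicle the same difference was -0.23 ± 0.13 (adjusted p = 0.401). Between KO and WT the Arg1 change on the drug was 0.16 ± 0.12 and was not called.

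In the KO comparison on the drug the gaps were wider. Gls2 read 7.53, 7.49, 7.31, 7.33 and 7.31 in KO fenofibrate mice, and the change was 1.01 ± 0.12 (limma, adjusted p = 5.49e-08), or 2.01-fold. Asl was higher by 0.91 ± 0.11 (adjusted p = 4.72e-08), Cps1 by 0.88 ± 0.11 (adjusted p = 8.68e-08), Ass1 by 0.73 ± 0.09 (adjusted p = 1.29e-07) and Otc by 0.59 ± 0.09 (adjusted p = 5.46e-06). For these 5 genes the KO and WT mice did not overlap, which was not counted over all genes either. The other Otc probe gave 0.30 ± 0.13 (adjusted p = 0.0648 over all probes) and the other Ass1 probe 1.01 ± 0.10 (adjusted p = 3.44e-09 over all probes).

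Slc25a15 was higher in KO on the drug by 1.39 ± 0.21 (limma, adjusted p = 3.32e-06). The KO mice read 2.60, 2.06, 2.56, 2.55 and 2.08 and the WT mice 0.81, 1.18, 1.03 and 0.88, with no overlap. Nags was higher by 0.44 ± 0.14 (adjusted p = 0.0112), and the groups overlapped. Without WT fenofibrate replicate 3 the Nags change was 0.34 ± 0.15 (adjusted p = 0.0623). Glul at 0.07 ± 0.12, Glud1 at 0.03 ± 0.08 and Arg1 were the members without a call. Other lists moved in the same comparison, in which 43.3% of all genes were called. Of 12 periportal markers 8 were higher and 2 lower, with sums of 10.76 to 11.05 in KO and 10.32 to 10.45 in WT fenofibrate mice. Of 13 pericentral markers tested 6 were higher and 1 lower, with sums of 10.99 to 11.12 in KO and 10.84 to 11.02 in WT. Of 8 hepatocyte markers 3 were higher and 1 lower, with sums of 12.83 to 12.97 in KO and 12.58 to 12.83 in WT. Of 6 cholangiocyte markers 4 were lower, with sums of 1.34 to 2.55 in KO and 1.65 to 2.88 in WT, and Krt7 and Epcam were each well above background on 2 of 5 KO arrays. Both red blood cell markers tested, Hba-a1 and Alas2, were higher, with sums of 8.39 to 9.32 in KO and 6.93 to 7.60 in WT. Of 7 lymphocyte and neutrophil markers 2 were higher and 3 lower, with sums of 3.66 to 5.08 and 3.94 to 4.10. Between LKO and LWT on the drug, where 36.6% of all genes were called, 7 of the 13 pericentral markers were higher and none lower. Of the 12 periportal markers 4 were higher and 1 lower there. The part of these lists in the changes of the 10 genes was not tested.

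Between the control lines 1 of the 10 genes was called on the drug, and their drug responses were not called different for any gene. On vehicle none of the 10 genes was called between WT and LWT, 4 had an unadjusted p under 0.05, and 0.913% of all genes were called. On fenofibrate Gls2 was lower in WT than in LWT by a log2 change of -0.56 ± 0.12 (limma, adjusted p = 0.0178), with no overlap, and 0.533% of all genes were called. That call was lost without WT fenofibrate replicate 1 (adjusted p = 0.123), WT fenofibrate replicate 3 (adjusted p = 0.057), LWT fenofibrate replicate 1 (adjusted p = 0.0568) or LWT fenofibrate replicate 5 (adjusted p = 0.0528). Asl was lower by -0.43 ± 0.11 (adjusted p = 0.0639), and was called without LWT fenofibrate replicate 3 (adjusted p = 0.0401).

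Set in order, the WT fenofibrate group had the lowest mean of the 8 groups for Cps1, Otc, Ass1, Asl, Nags, Slc25a15 and Gls2. For Gls2 it was 6.39 ± 0.13 (SD, n = 4), followed by LWT on the drug at 6.95 ± 0.31 (SD, n = 5), and that gap was larger than either SD. The other 6 group means of Gls2 lay between 7.16 and 7.47, and no neighbours among them differed by more than their SD. For Asl the order from the lowest was WT on the drug at 6.89, WT on vehicle at 7.30 and LWT on the drug at 7.32, and the latter pair did not differ beyond its spread. KO on the drug was highest for Cps1, Otc, Ass1 and Asl. For Glud1 the highest mean was WT on vehicle at 7.44 ± 0.10 (SD, n = 4), and the other 7 lay between 7.14 and 7.27.

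The 34 arrays lay on 5 slides, each of which held several groups. Within slides that held both groups of a comparison, the called changes of the 10 genes gave 46 values, and 46 had the direction of the call. The arrays of those slides also entered the calls. Of the 46 values, 21 came from LKO against LWT on the drug. The fall with the drug in WT gave 6, all from slide 3, which held 2 drug mice and 1 vehicle mouse of WT. No other slide held both WT groups.

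Across the 34 mice the genes of the pathway varied together to different degrees. These values describe arrays that share groups and slides, and r after the group means were removed stands beside each. The gene most like Cps1 among all genes tested was Asl (Pearson r = 0.93, Spearman rho = 0.86, and r = 0.81 without group means), followed by Paics, an enzyme of purine synthesis (r = 0.90, and 0.78 without group means), and the noncoding RNA Dleu2 (r = 0.90, and 0.71 without group means). The gene most like Gls2 was Ass1 (r = 0.92, rho = 0.85, and r = 0.75 without group means). Next came Gnmt, the glycine methyltransferase of liver (r = 0.90, but 0.57 without group means), and the immune receptor Lag3 (r = 0.87, but 0.27 without group means). For Glul the closest were Slc4a2, an anion exchanger (r = 0.70), Cyp2d11 (r = 0.68) and Zfp385a (r = 0.68). Without group means their r was 0.79, 0.65 and 0.65. Without the 2 mice farthest from the median of Glul, the r with Slc4a2 was 0.58, while that of Cps1 with Asl was 0.92 and that of Gls2 with Ass1 0.89 on the same rule. Cps1 and Otc, which act one after the other, had r = 0.60, and -0.14 without group means.

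Promoters of 6 of the 10 genes were found in the RefSeq promoter table of the GRCm38.p6 build. Those of Otc and Ass1, whose genes fell in both control lines, and of Glul, which had no call with the drug, are shown to set their sequence side by side. The Otc window is chrX:10252055-10252354, the Ass1 window chr2:31470020-31470319 and the Glul window chr1:153899679-153899978, all on the plus strand. Each has 300 bases, most of them before the start of the gene. Capitals mark matches, on either strand, to 6 motifs. These are the half-site of many nuclear receptors, AGGTCA, and its direct repeat AGGTCANAGGTCA, which contains the half-site. The others are the cyclic AMP response element TGACGTCA, the E-box CACGTG, the box CCAAT bound by NF-Y, and the TATA box written as TATAAA.

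Otc: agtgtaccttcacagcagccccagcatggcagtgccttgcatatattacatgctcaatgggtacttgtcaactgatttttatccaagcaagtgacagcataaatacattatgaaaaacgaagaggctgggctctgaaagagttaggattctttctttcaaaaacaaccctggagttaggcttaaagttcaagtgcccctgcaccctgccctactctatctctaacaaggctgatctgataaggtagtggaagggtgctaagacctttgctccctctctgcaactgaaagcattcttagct
Ass1: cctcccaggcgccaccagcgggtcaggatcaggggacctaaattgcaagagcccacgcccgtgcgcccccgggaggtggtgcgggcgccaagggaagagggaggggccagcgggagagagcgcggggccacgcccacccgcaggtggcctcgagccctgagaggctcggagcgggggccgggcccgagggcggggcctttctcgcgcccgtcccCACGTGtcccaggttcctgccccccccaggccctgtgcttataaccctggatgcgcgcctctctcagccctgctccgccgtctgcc
Glul: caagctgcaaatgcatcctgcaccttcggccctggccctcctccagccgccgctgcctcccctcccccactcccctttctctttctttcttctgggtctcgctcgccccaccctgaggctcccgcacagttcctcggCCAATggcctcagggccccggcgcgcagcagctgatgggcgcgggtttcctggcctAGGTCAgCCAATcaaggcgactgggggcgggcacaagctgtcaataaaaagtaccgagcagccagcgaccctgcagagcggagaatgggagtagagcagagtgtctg

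The G and C content was 44.3% in the Otc window, 74% in that of Ass1 and 64.3% in that of Glul, against a median of 52.7% over the table. The Otc window held none of the 6 motifs. The Ass1 window held 1 CACGTG, which 7.15% of the 32851 promoters in the table hold. The Glul window held 1 AGGTCA, present in 16.3% of the promoters, and 2 CCAAT, present in 37.4%. The direct repeat AGGTCANAGGTCA was in none of the 6 genes' windows and in 0.0396% of the table, TGACGTCA in 1.79% and TATAAA in 13.6%. These matches describe letters in the windows only.

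A list of 37 other nitrogen genes, of which 34 were tested, covers related enzymes and carriers. With fenofibrate 1 of the 34 rose and 6 fell in WT liver, which is 20.6% of the list against 21.5% of all genes. In LWT liver 5 rose and 6 fell, or 32.4% against 17.9%. Slc1a4, a carrier of neutral amino acids, fell by a log2 change of -1.06 ± 0.19 in WT (limma, adjusted p = 9.87e-05) and -1.48 ± 0.18 in LWT (adjusted p = 3.44e-07). The aspartate aminotransferase of the cytosol, Got1, changed by -0.70 ± 0.18 and -0.67 ± 0.17 (adjusted p = 0.00442 and 0.00482). The proline oxidase gene Prodh changed by -0.40 ± 0.11 and -0.59 ± 0.11, the glutamine and amino acid carrier Slc38a2 by -0.74 ± 0.23 and -0.70 ± 0.22, and the glutamate carrier Slc1a2 by -0.66 ± 0.13 and -0.49 ± 0.12, all called in both lines.

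The gene that rose in both was Sirt5, by 0.87 ± 0.16 in WT (limma, adjusted p = 0.000158) and 0.81 ± 0.15 in LWT (adjusted p = 0.000246). SIRT5 is a mitochondrial deacylase that is known to act on CPS1. In LWT the mitochondrial aspartate aminotransferase Got2 also rose, by 0.34 ± 0.10 (adjusted p = 0.0235), and so did Aldh4a1 of proline breakdown, by 0.37 ± 0.10 (adjusted p = 0.00921). None of the 34 genes was called with the drug in LKO or KO liver. The median change over the list was 0.00 in WT and -0.02 in LWT.

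Between KO and WT vehicle mice 12 of the 34 were higher and 4 lower, or 47.1% against 30.1% of all genes. Asparagine synthetase, Asns, was higher by 2.84 ± 0.69 (limma, adjusted p = 0.00238), Got1 by 1.31 ± 0.19 (adjusted p = 5.45e-06) and the arginine and lysine carrier Slc7a2 by 0.92 ± 0.19 (adjusted p = 0.000391). The largest fall was that of Ddah1, which degrades methylated arginine, at -1.97 ± 0.25 (adjusted p = 7.11e-07). Between LKO and LWT vehicle mice 2 were higher and 2 lower, or 11.8% against 6.16% of all genes. Slc1a5 was higher by 0.89 ± 0.20 and Prodh by 0.47 ± 0.11, and Got2 and the aspartate and glutamate carrier Slc25a13 were both lower by -0.52, with SE of 0.11 and 0.08 (adjusted p from 7.24e-05 to 0.00827).

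On the drug 13 of the 34 were higher and 6 lower in KO than in WT, or 55.9% against 43.3% of all genes. Between LKO and LWT 7 were higher and 6 lower, or 38.2% against 36.6%. The direct test of the responses was called for 11.8% of the list against 11% of all genes between WT and KO, and for 8.82% against 6.76% between LWT and LKO. Between WT and KO the 4 genes were Slc1a4 at -1.38 ± 0.27, Slc1a2 at -0.69 ± 0.18, Slc38a4 at -0.60 ± 0.14 and Sirt5 at 0.86 ± 0.23 (limma, adjusted p from 0.000758 to 0.0135). Between LWT and LKO it was called for 3: Slc1a4 at -1.38 ± 0.25, Prodh at -0.64 ± 0.15 and Sirt5 at 0.84 ± 0.21 (adjusted p from 0.000499 to 0.0122).

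**Figure D4:**
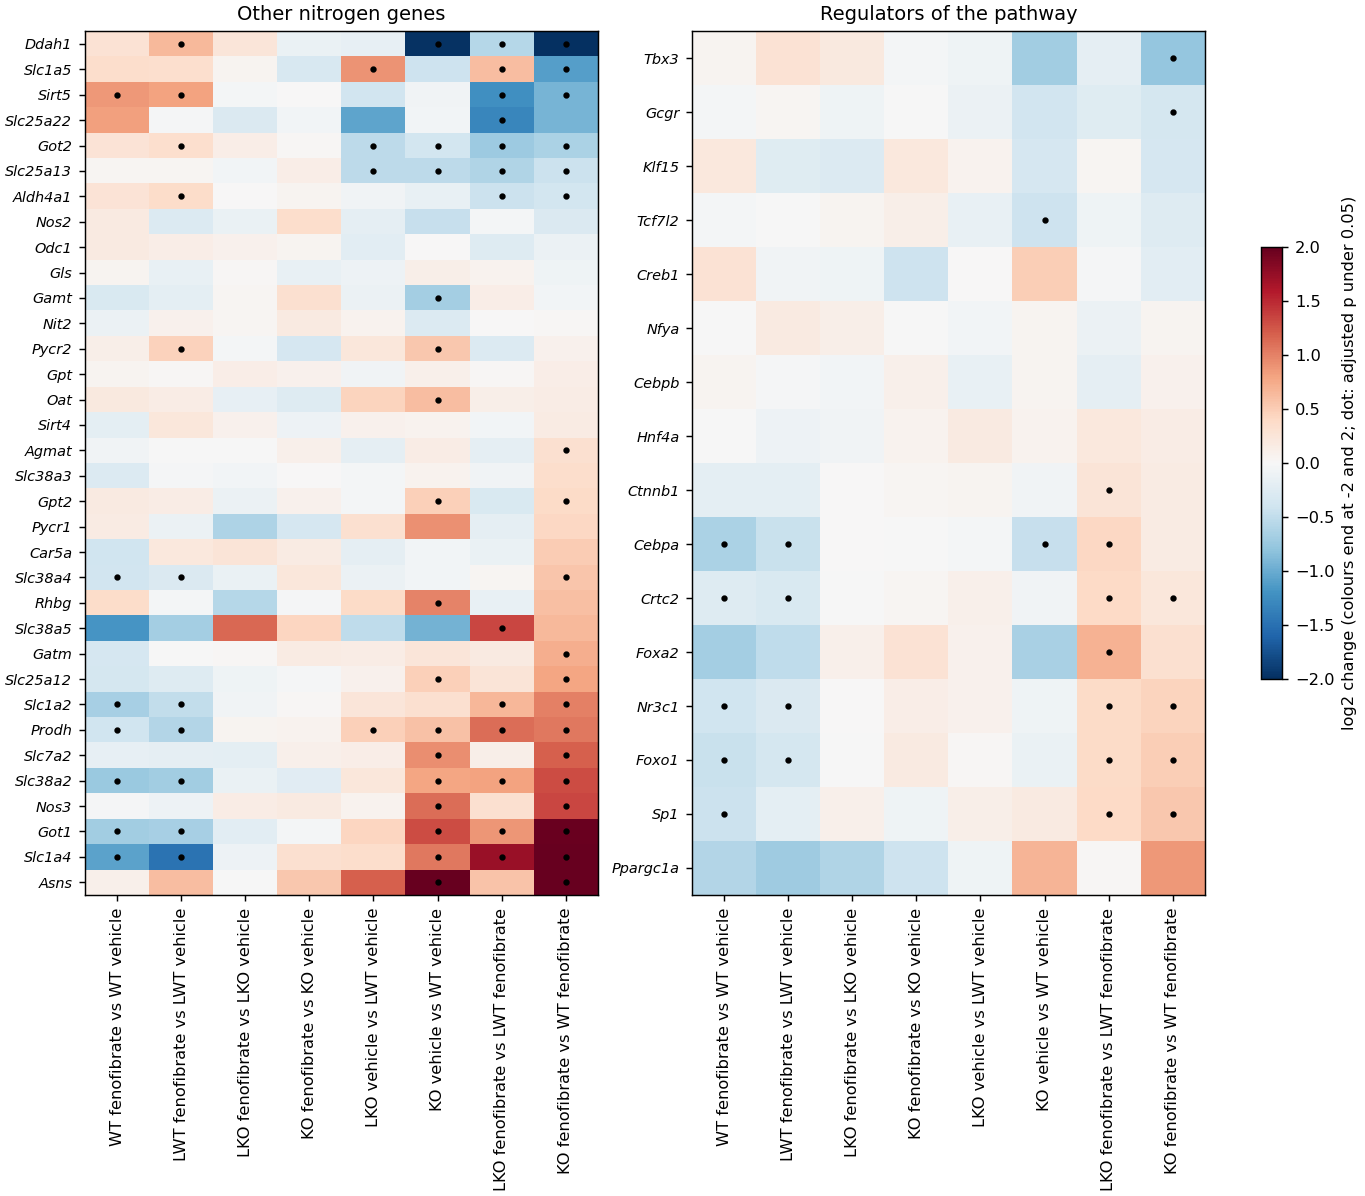
Log2 change of the 34 other nitrogen genes and 16 regulators in 8 comparisons, with a dot where the adjusted p was under 0.05. The columns for fenofibrate in LKO and KO liver hold no dots, while Slc1a4, Got1 and Prodh are blue in both control lines on the drug and red in both knockouts against their controls on the drug.

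A list of 16 regulators known to act on these genes or on their zonation was all tested. In WT, where 21.5% of all genes were called, 5 fell with the drug and none rose: Cebpa at -0.63 ± 0.15, Foxo1 at -0.45 ± 0.10, Sp1 at -0.43 ± 0.11, the glucocorticoid receptor Nr3c1 at -0.40 ± 0.10 and Crtc2 at -0.26 ± 0.10 (limma, adjusted p from 0.00167 to 0.0487). In LWT 4 fell, Cebpa, Foxo1, Crtc2 and Nr3c1, by changes of -0.44 to -0.29. That is 25% of the list, against 17.9% of all genes. C/EBP alpha and the glucocorticoid receptor are known activators of urea cycle genes. The difference of responses between WT and KO was called for Foxo1 at -0.63 ± 0.15 (adjusted p = 0.00421) and Nr3c1 at -0.53 ± 0.15 (adjusted p = 0.0173). That is 12.5% of the list, against 11% of all genes. Between LWT and LKO the difference of responses was called for none of the 16, against 6.76% of all genes. Between KO and WT vehicle mice Cebpa and Tcf7l2 were lower, at -0.45 and -0.41 (adjusted p from 0.011 to 0.0297). These 2 are 12.5% of the list, against 30.1% of all genes. On the drug 7 of the 16 were higher and none lower in LKO than in LWT, where 36.6% of all genes were called. In KO against WT 4 were higher and 2 lower, or 37.5% against 43.3%. The glucagon receptor Gcgr and Hnf4a, which drives Otc, were not called with the drug in any genotype.

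Some markers of each zone of the lobule fell, beside 21.5% of all genes called. Of 12 periportal markers 4 fell in WT with the drug: Etnppl at -1.64 ± 0.40, the histidine lyase Hal at -0.48 ± 0.15, Pck1 at -0.43 ± 0.11 and Igf1 at -0.35 ± 0.10 (limma, adjusted p from 0.00349 to 0.0215). Of 13 pericentral markers tested 5 fell, among them Cyp1a2 at -0.93 ± 0.21 (adjusted p = 0.0018), Gulo at -0.63 ± 0.12 (adjusted p = 0.000225) and Lgr5 at -2.36 ± 0.49 (adjusted p = 0.000685), which was well above background on 3 of 4 WT fenofibrate arrays. In LWT the periportal markers Cdh1 at -0.73 and Igf1 at -0.30 fell and Hsd17b6 at 1.04 rose (adjusted p from 0.0191 to 0.035). The pericentral markers Gulo at -0.77, Cyp1a2 at -0.66 and Slc1a2 at -0.49 fell there (adjusted p from 7.85e-06 to 0.0224).

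The summed level of the periportal list was 10.67 to 10.79 in WT vehicle mice and 10.32 to 10.45 in WT fenofibrate mice, with no overlap. In LWT mice the groups overlapped, with a median of 10.76 and a highest value of 10.96 on vehicle, and 10.49 to 10.65 on the drug. That of the pericentral list was 10.81 to 11.09 in WT vehicle mice and 10.84 to 11.02 in WT fenofibrate mice, which overlapped. The summed hepatocyte markers were 12.76 to 12.90 and 12.58 to 12.83, with Tdo2 called higher and Trf and Fgb lower. The part of these shifts in the changes of the 10 genes was not tested.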

How the data were processed

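The 34 arrays are one-colour Agilent arrays of liver RNA, grouped by the genotype and treatment in the labels. Per the file headers, the scanner files hold spot intensity extracted with Feature Extraction 10.10.1.1 of Agilent, and probe positions on mm9. The deposited value table is in log2 units, with a median of 7.63 in every column, and served as an alternative. Its scale against the scanner files tracked the log2 median spot intensity, except on slide 1, and no source used here gives the step that differs there. The submitters' processing notes also name limma.

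Processed signals were used. Outlier spots were set to missing, spots of a probe were averaged, log2 was taken and the 75th percentile of the array subtracted. A probe was kept where all arrays of some group read it as well above background (31053 probes). Each gene was read by its brightest probe, named through RefSeq accessions or symbols. Group means of all 8 groups were fitted in limma 3.58.1 (R 4.3.3) without covariates, over 13 comparisons, and the fit was tested on simulated data. The number of arrays limits the precision.

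The 10 genes follow the names in the array annotation, and the text names all of them. From the wider lists it names called genes with the largest changes, and every called gene where fewer than 4 were called in the comparison described. The genes, lists and tests were chosen with earlier results of these data known. A gene of the regulator list is not reported here. For likeness the 3 genes with the highest r were named. Alternatives were another background correction, quantile normalization, the value table, no filter on dim probes, the mean of probes, slide or replicate number as a block, fewer groups, and each mouse left out.

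Replicate numbers come from the labels. Mice of different numbers were not compared, so the values below do not show that the numbers pair the mice. The replicate block was fitted over all 34 arrays. Same-numbered mice deviated together (every r at least 0.1) in the vehicle comparisons of LKO with LWT (r from 0.12 to 0.29), KO with WT (0.12 to 0.40) and WT with LWT (0.11 to 0.24), where most pairs of the LWT comparisons also shared a slide.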

Additional observations from a re-analysis of the deposited data

Results flagged for a closer look

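Among 70 sets, each of 1 gene in 1 group of 4 or 5 mice, 2 held a mouse far from the others. Chance gives about 1 in 20, so 2 is no more than chance would give. The sets also share mice. Both were for Otc: LWT vehicle replicate 4 read 6.06, with the nearest mouse at 6.36, and LWT fenofibrate replicate 3 read 5.74, with the nearest at 5.92. The drug response of 4 genes differed between WT and KO by limma's test of the difference itself. The differences (WT response minus KO response) were -0.79 for Otc, -0.53 for Ass1, -0.60 for Asl and -0.87 for Gls2, with adjusted p of 0.000266, 0.0109, 0.0141 and 0.00159.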

How the results depend on the processing

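Of 31 called changes of the 10 genes, none turned its sign in any alternative. The alternatives other than leaving out a mouse gave 248 values, of which 226 kept the call and 22 lost it, and leaving out 1 mouse gave 304, of which 270 kept it and 34 lost it. Of 99 changes without a call, 22 of 792 values gained one, and 17 of 1056 with a mouse left out. For fenofibrate in LWT, 2 of the 10 genes were called with no filter on dim probes, with slide as a block or with only these groups fitted. With a mouse left out it was 2 to 4. Of all genes, these settings called 2319 (of 23422 tested), 2802 and 2544, against 2828 at the report's settings. Leaving out a mouse gave 2197 to 2626. For KO against WT on vehicle, 4 were called with quantile normalization, the authors' table, the mean of probes, the slide block or the replicate block, and 0 with only these groups. With a mouse left out it was 1 to 5. The same settings called 4867, 4664 (of 15715 tested), 4655, 4790 and 5069 of all genes, and 2022 with only these groups. At the report's settings 4743 were called, and 3836 to 5021 with a mouse left out. For LKO against LWT on the drug, leaving out a mouse gave 4 to 7 and the other settings 5 to 9. Over all genes they gave 5235 to 5539 and 5315 to 6326, against 5780 at the report's settings. Quantile normalization added Glul and Glud1, the authors' table added Glul, and fitting only these groups added Slc25a15. For WT against LWT on the drug, 2 were called with slide as a block and 0 with only these groups. With a mouse left out, 0 to 2 were called. The counts over all genes were 144, 60 and 47 to 132, against 84 at the report's settings. For the response of LWT minus that of LKO, 2 were called with quantile normalization, 1 with the slide block, 1 with the replicate block, 1 with only these groups and 0 to 2 with a mouse left out. Over all genes this difference of responses gave 1195, 1424, 1322, 1536 and 801 to 1091, against 1066 at the report's settings. The causes were not tested. In LWT, where same-numbered vehicle and drug mice did not all deviate together, the replicate block called Asl for the drug (limma, -0.31, adjusted p = 0.0278). Beside it, the block added calls only for Asl and Arg1 between KO and WT on vehicle and for Cps1 in the response of LWT minus that of LKO, and it removed none. Signal over background did not limit any of the 10 genes.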
